A study of Mus musculus with 11 samples.

Results

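The genes described here are 7 transcription factors known from effector Treg cells, Prdm1, Irf4, Batf, Maf, Nfil3, Id2 and Bhlhe40, out of 52997 genes in the count table. They were chosen by name as factors known from effector Treg cells, with no rule on their values, though earlier results of these data were known. All 7 passed the filter on low counts (a group mean above 10), as did 12932 genes in all. They were read in vTreg53 Treg cells, CD4+ regulatory T cells that carry the rearranged TCR of a clone found in visceral adipose tissue (VAT). Separate groups of mice were given adjuvant with or without Fat1562, a synthetic peptide that this TCR recognizes.

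The donors were male C57BL/6 mice heterozygous for the vTreg53 Tcra and Tcrb transgenes (vTreg53 Tg+) and carrying a Foxp3-GFP reporter, so every library comes from cells of 1 TCR specificity, sorted by the clonotype and the CD45.2 mark. The cells were transferred into male CD45.1 B6 mice (the labels mark every library as male and 15 weeks) and stayed there for 6 weeks. One set of mice then received Fat1562 in CFA under the skin and, 1 week later, Fat1562 in IFA into the peritoneum. Cells were collected 1 week after that from pooled spleen and lymph nodes (Spl/LN) or from epididymal VAT, which was digested with collagenase. Of the 4 groups, those given adjuvant alone comprised 3 Spl/LN and 2 VAT libraries, and those given adjuvant/Fat1562 comprised 3 of each, with 1000 double-sorted cells to a library. The labels call the control mice unimmunized and name PBS, whereas the paper describes CFA alone and then IFA alone. The term adjuvant alone is kept here. If the controls had no adjuvant, the peptide and its adjuvants cannot be told apart in the Fat1562 comparisons. The methods call the libraries biological replicates, but the sources used here do not say how many mice stand behind each. P-values therefore measure the spread between libraries, which may be partly technical. Where VAT is compared with Spl/LN, the tissue and its collagenase digestion cannot be told apart.

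Treg cells leave the resting state when their TCR is engaged, and they then take on tissue homing, IL-10 and other effector functions. IRF4 and BATF bind DNA together at composite sites downstream of TCR signals, and PRDM1 (Blimp-1) is a zinc finger repressor that marks the effector pool and is needed there for IL-10. NFIL3 and MAF are, like BATF, bZIP proteins, ID2 is a helix-loop-helix protein without a DNA-binding region that sequesters E proteins, and BHLHE40 is a helix-loop-helix repressor induced by TCR signals.

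Total counts per library ran from 4490242 to 6570057. Foxp3, the defining factor of Treg cells, had between 6747 and 10249.9 normalized counts, and all 8 Treg identity markers were above 3 counts in every library. Normalized counts are counts brought to the mean library size after TMM scaling. Among markers of B and plasma cells, Ighm was high in every library, at 6015 to 28547 normalized counts, and Xbp1 (926 to 1774) and Cd79b (47.2 to 204) were also present throughout, whereas Ms4a1, Pax5 and Ebf1 had at most 6 counts in any library. A pair of libraries stood apart for plasma cell transcripts, with 1709 counts of Igkc in Spl/LN adjuvant alone replicate 2 and 8274 in VAT adjuvant alone replicate 2, against 105 to 721 in the other 9. The 11 markers of this list, mostly Ighm in every group, summed to 18309 to 19948 normalized counts in Spl/LN adjuvant alone, 13288 to 14327 in Spl/LN adjuvant/Fat1562, 8448 and 42393 in VAT adjuvant alone, and 8373 to 10189.6 in VAT adjuvant/Fat1562. Macrophage and dendritic cell markers summed to 762 to 1572 over all libraries, NK cell, ILC and CD8 T cell markers to 99.7 to 195, and adipocyte and stromal cell markers to 15.2 to 45.0. Cd74 held most of the macrophage and dendritic cell sums, at 720 to 1451 normalized counts per library. No other gene of that list exceeded 70.4, the highest value of Lyz2. Results that change without the Igkc-high pair are given with and without it. In bulk libraries, fewer cells of a type and less RNA per cell cannot be told apart.

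Promoter stretches of 3 genes are shown from RefSeq (GRCm38.p6), which held a promoter entry for 5 of the 7 genes. Whether they relate to the expression values was not tested. Those of Batf and Nfil3 are given because both genes were called higher after Fat1562 in Spl/LN and in VAT, and that of Prdm1 because its promoter was the one of the 5 with a match to a motif searched. Each is the part of the 250 bases before the RefSeq start that lies outside annotated exons of the gene, written 5′ to 3′ along the gene's strand. The Prdm1 stretch lies inside the annotated gene, whose 5′ end is at 44528501, and so not upstream of the whole gene. Capitals mark the match to TGANTCA, the letters searched for AP-1. N allowed any base, and here it is A, so the match is a loose one.
Batf, chr12:85686470-85686668, plus strand: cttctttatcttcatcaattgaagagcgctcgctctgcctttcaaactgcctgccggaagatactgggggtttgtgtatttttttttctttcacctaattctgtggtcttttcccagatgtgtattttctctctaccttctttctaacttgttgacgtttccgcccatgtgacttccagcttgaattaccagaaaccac
Nfil3, chr13:52981074-52981289, minus strand: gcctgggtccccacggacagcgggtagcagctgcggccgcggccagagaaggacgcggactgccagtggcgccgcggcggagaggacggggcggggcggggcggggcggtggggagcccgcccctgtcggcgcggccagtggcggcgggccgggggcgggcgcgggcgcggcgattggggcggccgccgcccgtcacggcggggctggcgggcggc
Prdm1, chr10:44458749-44458998, minus strand: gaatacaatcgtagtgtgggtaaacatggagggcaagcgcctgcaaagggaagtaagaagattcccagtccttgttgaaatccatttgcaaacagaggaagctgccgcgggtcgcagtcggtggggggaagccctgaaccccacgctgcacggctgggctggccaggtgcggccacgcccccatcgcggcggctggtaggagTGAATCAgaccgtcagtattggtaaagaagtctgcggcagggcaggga

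The match in Prdm1 began 48 bases before this RefSeq start, which is internal to the annotated gene. The motifs searched on both strands were TGANTCA for AP-1, which 6.75% of 32851 promoters held, TGACGTCA for CRE (1.55%), CACGTG for the E-box (6.02%), TTANGTAA for NFIL3 (2.06%), a pair of GAAA blocks with 2 bases between them for IRF and PRDM1 (2.98%) and TTCNNNGAA for STAT (7.02%). A match is a description of these letters and not a binding site. The Nfil3 promoter was rich in G and C, at 81.6% of its 250 bases, and that of Batf was not, at 46.4%, where the median promoter had 52.4%.

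Compared per kilobase of exon, so that genes of unlike length can be set side by side, Batf was the most abundant of the 7 in Spl/LN, whereas in VAT with adjuvant alone Id2 (1392 ± 69.7 normalized counts per kb, SD, n = 2) exceeded Batf (974 ± 6.98). With adjuvant alone in Spl/LN, Batf stood at 999 ± 80.4 normalized counts per kb (SD, n = 3). Id2 followed at 211 ± 33.2, then Irf4 at 144 ± 12.5 and Maf at 134 ± 12.8, which overlapped within 1 SD. Nfil3 at 69.0 ± 9.30 and Prdm1 at 66.2 ± 16.7 overlapped as well, and Bhlhe40 was lowest at 36.9 ± 15.6. In VAT after Fat1562 the order differed. Batf at 1725 ± 225 and Id2 at 1239 ± 370 per kb led and overlapped within 1 SD. Nfil3 at 407 ± 54.3 and Bhlhe40 at 360.1 ± 86.0 came next, and their SDs overlapped too. Maf at 167 ± 2.94, Irf4 at 136 ± 26.9 and Prdm1 at 108 ± 15.0 were lowest, and Irf4 and Prdm1 overlapped.

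**Figure D1:**
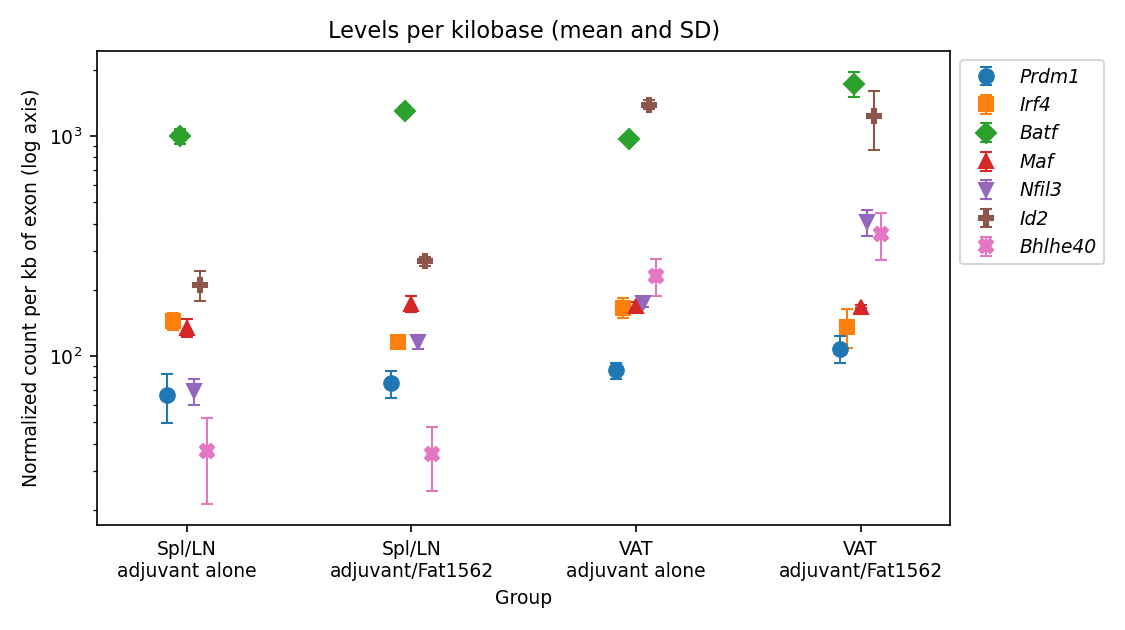
Mean normalized count per kilobase of exon (log axis) of the 7 genes in the 4 groups, with bars for the SD over 3 libraries (2 in VAT adjuvant alone). Bhlhe40 goes from the lowest place in Spl/LN, at 36.9 and 36.0 per kb, to 232 and 360.1 in VAT, while Maf stays between 134 and 173.

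Between VAT and Spl/LN, the 7 genes were higher or did not pass the test, and none was called lower. With adjuvant alone, 4 of 7 were called higher in VAT at an adjusted p under 0.05 (edgeR quasi-likelihood test, Benjamini-Hochberg over 12932 genes), namely Id2, Bhlhe40, Nfil3 and Maf, where 9.09% of all tested genes were called higher and 7.18% lower. After Fat1562, 5 of 7 were called higher, Bhlhe40, Id2, Nfil3, Prdm1 and Batf, against 8.26% of all genes called higher and 6.73% lower. The median log2 fold change of the 7 was 0.37 with adjuvant alone and 0.53 after Fat1562, against −0.03 and −0.01 over all genes. In either direction, 16.3% and 15.0% of all genes were called. Without the Igkc-high pair, Id2, Bhlhe40 and Nfil3 were called with adjuvant alone and Maf was not (log2 fold change 0.34, adjusted p = 0.184).

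Fat1562 against adjuvant alone gave fewer calls among the 7. In VAT, 2 of 7 were called higher, Nfil3 and Batf, against 4.33% of all genes called higher and 3.97% lower (8.30% in either direction). In Spl/LN, 3 of 7 were, Nfil3, Batf and Maf, against 2.58% called higher and 1.40% lower (3.98% in either direction). The median log2 fold change was 0.33 in VAT and 0.35 in Spl/LN, against 0.01 and 0.00 over all genes. Without the Igkc-high pair, Nfil3 and Batf were still called in VAT, and Nfil3 alone in Spl/LN. In none of these comparisons was a member called lower. The 4 comparisons share groups with one another and are therefore not independent.

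**Figure D2:**
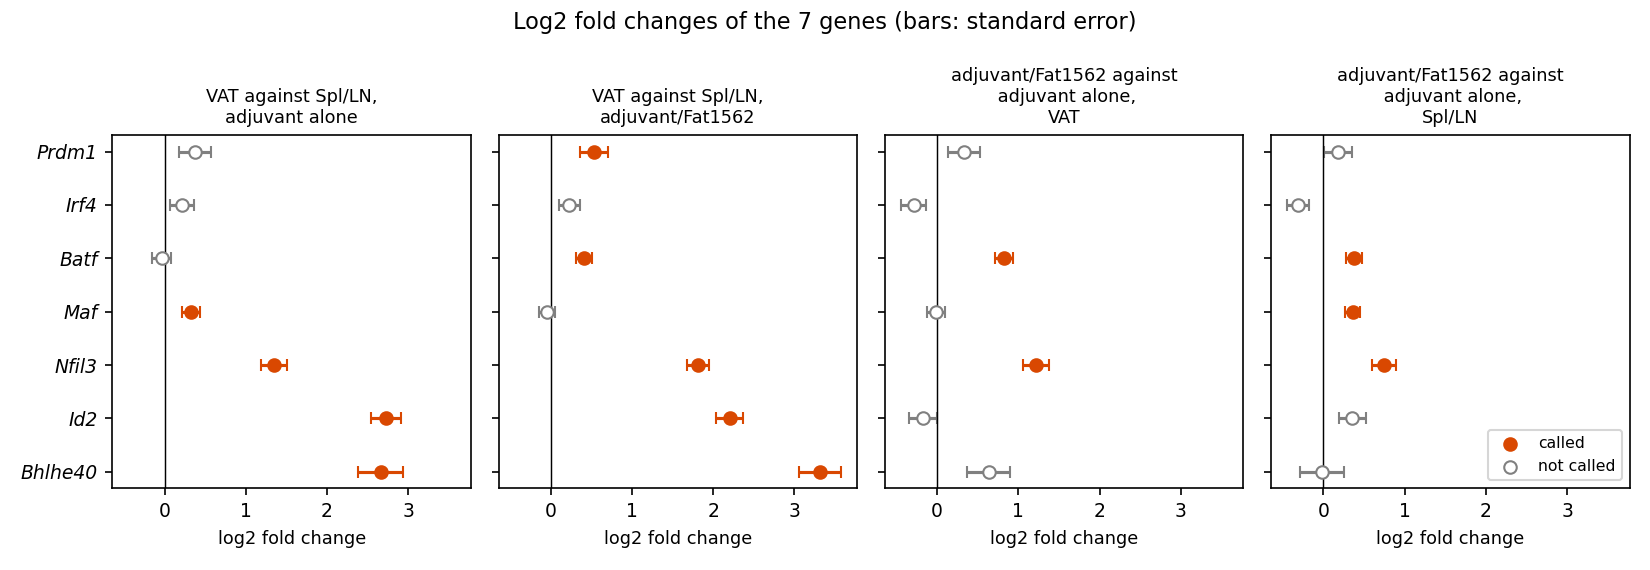
Log2 fold change (x axis) of each of the 7 genes in the 4 comparisons, with bars for 1 standard error from the edgeR fit. Filled points were called at an adjusted p under 0.05 and open points were not, and the tissue differences of Id2 and Bhlhe40, from 2.20 to 3.31, lie farthest from 0.

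A test of whether the Fat1562 effect differed between tissues called 0 of 7 genes with edgeR and 0 of 7 with DESeq2, against 3.72% of all genes with edgeR, 1.70% in the positive and 2.02% in the negative direction. At an unadjusted p under 0.05 there were 4 of 7 members and 2193 of 12932 genes. These were Batf at a log2 difference of effects of 0.45 ± 0.15 (SE, adjusted p = 0.122), Maf at −0.37 ± 0.14 (0.179), Nfil3 at 0.47 ± 0.21 (0.271) and Id2 at −0.52 ± 0.24 (0.279). Batf was called once VAT adjuvant/Fat1562 replicate 3 was left out (0.54, adjusted p = 0.04996) and Id2 once VAT adjuvant/Fat1562 replicate 1 was left out (−0.77, adjusted p = 0.0415).

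Batf, the bZIP partner of IRF4, rose after Fat1562 in both tissues. Its normalized counts were 1399.6, 1519.7 and 1294 in the 3 Spl/LN adjuvant alone libraries, 1926, 1735 and 1812 in Spl/LN adjuvant/Fat1562, 1362 and 1376 in VAT adjuvant alone, and 2732, 2443 and 2101 in VAT adjuvant/Fat1562. The immunized groups lay above their controls without overlap in both tissues, as 41.1% of all genes did in either direction in VAT and 21.2% in Spl/LN, and both control groups lay at one level. After Fat1562, Batf was 1.77-fold higher in VAT (log2 0.82 ± 0.11 SE, edgeR adjusted p = 0.000165). In Spl/LN it was 1.30-fold higher (log2 0.38 ± 0.10, adjusted p = 0.0437). That call was lost without any of 8 libraries, namely Spl/LN adjuvant alone replicate 1 or 3, any of the 3 Spl/LN adjuvant/Fat1562 libraries, either VAT adjuvant alone library or VAT adjuvant/Fat1562 replicate 2 (adjusted p from 0.0555 to 0.144), without the Igkc-high pair (log2 0.44, 0.0528) and with quantile normalization (log2 0.33, 0.0582). The levels in VAT and Spl/LN differed after Fat1562 (1.33-fold, log2 0.41 ± 0.10, adjusted p = 0.00895), a call lost without VAT adjuvant/Fat1562 replicate 1 (log2 0.32, adjusted p = 0.0614). With adjuvant alone the tissue difference was −0.04 ± 0.11 on the log2 scale (adjusted p = 0.872).

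Irf4, the interferon regulatory factor that pairs with BATF, was called in no comparison. It had 751, 727 and 635 normalized counts in Spl/LN adjuvant alone, 598, 581 and 528 in Spl/LN adjuvant/Fat1562, 877 and 752 in VAT adjuvant alone, and 818, 574 and 611 in VAT adjuvant/Fat1562. The immunized Spl/LN libraries lay below their controls without overlap, as 21.2% of all genes did in either direction. In VAT 1 immunized library lay between both controls. After Fat1562 the log2 fold change was −0.31 ± 0.13 in Spl/LN (adjusted p = 0.222) and −0.29 ± 0.15 in VAT (adjusted p = 0.281). Its partner Batf had positive values in both of these comparisons.

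Prdm1, which encodes Blimp-1, was called only between the tissues after Fat1562. The values were 414, 262 and 432 in Spl/LN adjuvant alone, 360.4, 481 and 414 in Spl/LN adjuvant/Fat1562, 451 and 509 in VAT adjuvant alone, and 668, 509 and 633 in VAT adjuvant/Fat1562. Every VAT library lay above the Spl/LN libraries of the same treatment, as 41.4% of all genes did in either direction with adjuvant alone and 36.2% after Fat1562, and Spl/LN adjuvant alone replicate 2, one of the Igkc-high pair, was the lowest of the 11. After Fat1562, Prdm1 was 1.44-fold higher in VAT (log2 0.53 ± 0.17, edgeR adjusted p = 0.0468). The call was lost without any of 6 libraries, Spl/LN adjuvant/Fat1562 replicate 1 or 3, either VAT adjuvant alone library, or VAT adjuvant/Fat1562 replicate 1 or 3 (adjusted p from 0.0516 to 0.188), and with quantile normalization (adjusted p = 0.0740). With adjuvant alone the tissue difference was 0.37 ± 0.19 (adjusted p = 0.215), and 0.09 (adjusted p = 0.848) without the Igkc-high pair. Fat1562 against adjuvant alone gave 0.33 ± 0.19 in VAT (adjusted p = 0.362) and 0.18 ± 0.17 in Spl/LN (adjusted p = 0.648).

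Nfil3, a bZIP repressor also known from NK cell and ILC development, was called in all 4 comparisons. It had 158, 141 and 121 normalized counts in Spl/LN adjuvant alone, 254, 220.2 and 229 in Spl/LN adjuvant/Fat1562, 343 and 367 in VAT adjuvant alone, and 946, 734 and 791 in VAT adjuvant/Fat1562. The 4 groups followed each other in this order with no overlap. In single comparisons, from 21.2% (Fat1562 in Spl/LN) to 41.4% (tissue with adjuvant alone) of all genes had groups without overlap. Nfil3 was 2.54-fold higher in VAT than in Spl/LN with adjuvant alone (log2 1.34 ± 0.16, edgeR adjusted p = 1.03e-05). After Fat1562 the tissue difference was 3.51-fold (log2 1.81 ± 0.14, adjusted p = 8.55e-08). Fat1562 raised it 2.32-fold in VAT (log2 1.22 ± 0.16, adjusted p = 8.87e-05) and 1.68-fold in Spl/LN (log2 0.75 ± 0.15, adjusted p = 0.00742). All 4 calls held when each library was left out in turn and under every other alternative tried. Markers of NK cells, ILCs and CD8 T cells, the list that holds other cells known to use Nfil3, summed to 101 to 133 normalized counts in Spl/LN adjuvant alone, 103 to 157 in Spl/LN adjuvant/Fat1562, 173 and 195 in VAT adjuvant alone and 99.7 to 140.4 in VAT adjuvant/Fat1562. Cd8b1 held most of these sums, at 66.3 to 193 normalized counts per library. Cd8a of the same list had at most 6.39 in any library and 0 in every VAT library. Klrb1c of this list was called higher after Fat1562 in Spl/LN, where Nfil3 was too, with means of 2.23 ± 1.35 and 25.5 ± 8.07 normalized counts (adjusted p = 0.0463), while in VAT it had at most 4.07 in any library. Ncr1 had at most 3 counts in any library, and the part of such cells in the Nfil3 values was not tested.

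Maf, a bZIP factor known for driving Il10, was called higher in VAT with adjuvant alone and higher after Fat1562 in Spl/LN. Its normalized counts were 1036, 1059 and 1229.9 in Spl/LN adjuvant alone, 1290.1, 1528 and 1451 in Spl/LN adjuvant/Fat1562, 1436 and 1346 in VAT adjuvant alone, and 1367, 1365 and 1407 in VAT adjuvant/Fat1562. Spl/LN adjuvant alone lay below every other library, and the other 3 groups overlapped. Of all genes, 41.4% had no overlap between this group and VAT adjuvant alone, and 21.2% between it and Spl/LN adjuvant/Fat1562. The tissue difference with adjuvant alone was 1.25-fold (log2 0.33 ± 0.11, edgeR adjusted p = 0.0453) and the Spl/LN Fat1562 effect 1.28-fold (log2 0.36 ± 0.10, adjusted p = 0.0446). Both calls were lost without any library other than Spl/LN adjuvant alone replicate 3 or Spl/LN adjuvant/Fat1562 replicate 1, at adjusted p from 0.0521 to 0.247 for the tissue and from 0.0545 to 0.200 for the peptide. The Fat1562 call was also lost without the Igkc-high pair (log2 0.33, adjusted p = 0.126) and with median-of-ratios size factors (adjusted p = 0.0510). With quantile normalization and with only the groups compared, both were lost, at adjusted p = 0.204 and 0.109 for the tissue and 0.0705 and 0.0918 for the peptide, and the tissue call was also lost with no filter (0.117). In VAT the Fat1562 effect was −0.01 ± 0.11 (adjusted p = 0.973). Of the 38-base stretches of Maf transcripts, 5.01% also occur in other annotated genes, the largest share among the 7, and the antisense gene Gm15655 that overlaps it had 0 counts in all libraries.

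**Figure D3:**
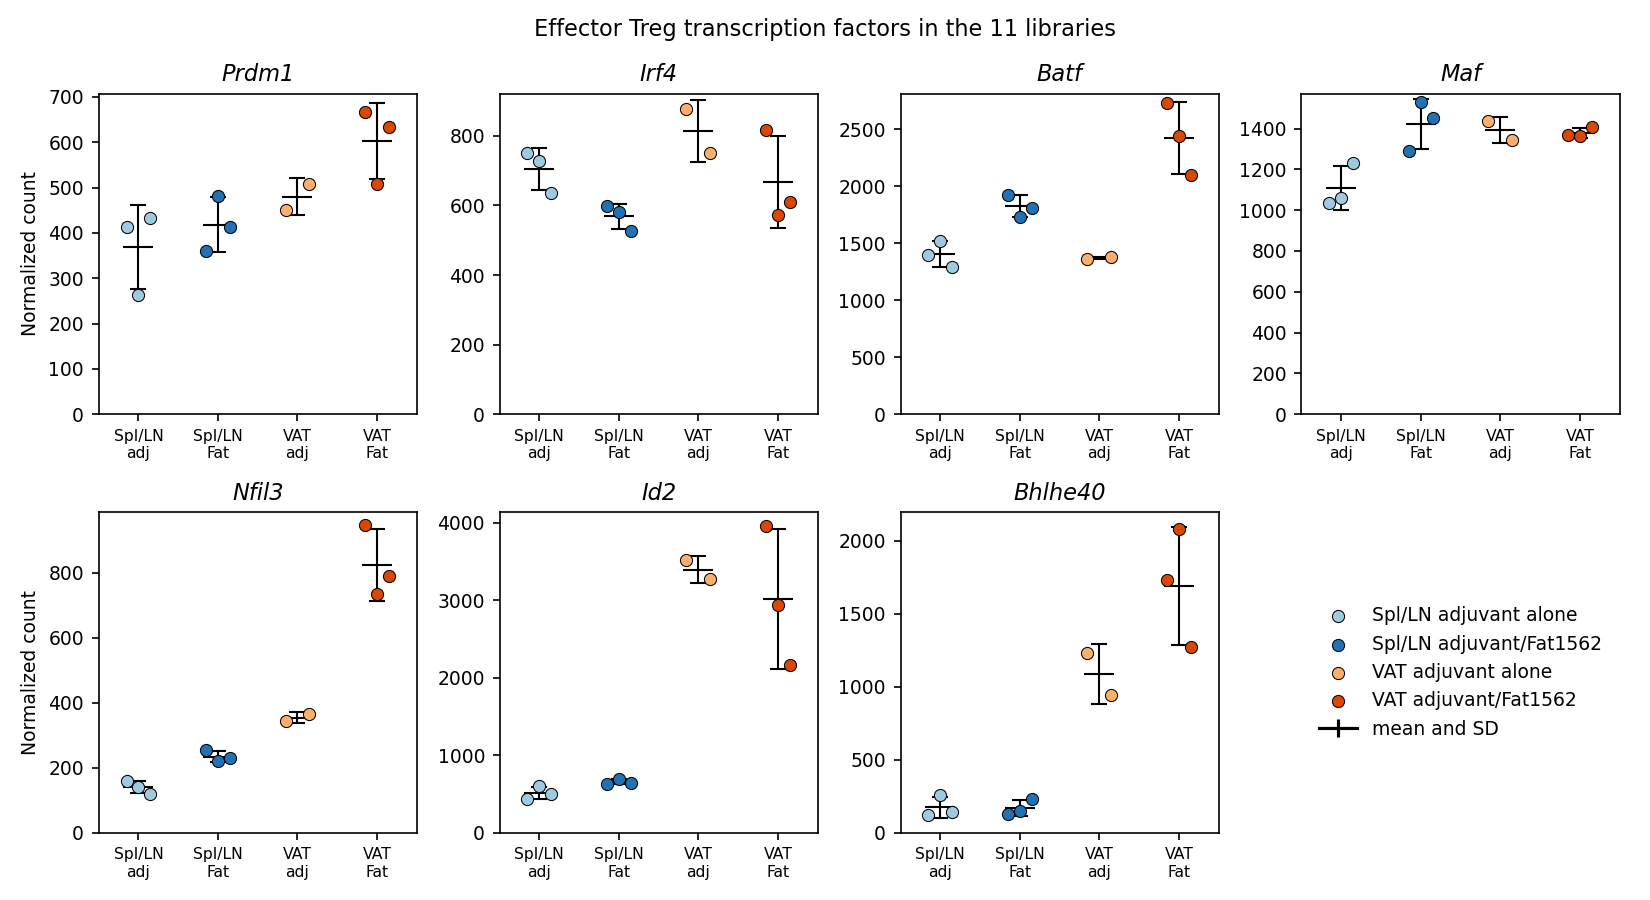
Normalized count of each of the 7 genes in every library (points), with the mean and SD of each group, in 7 panels whose y axes start at 0. Nfil3 steps up from group to group, Id2 and Bhlhe40 part by tissue, and Batf parts by Fat1562 within each tissue.

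Id2, the inhibitor of E proteins, had one of the largest tissue differences among the 7. It had 439.9, 599.95 and 500.4 normalized counts in Spl/LN adjuvant alone and 630.2, 693 and 645 in Spl/LN adjuvant/Fat1562. In VAT it had 3513 and 3273 with adjuvant alone and 3960.3, 2938 and 2160.4 after Fat1562. Every VAT library lay far above every Spl/LN library, and the VAT adjuvant/Fat1562 group spread the widest, around both of its controls. Between tissues, 41.4% of all genes had no overlap with adjuvant alone and 36.2% after Fat1562. Id2 was 6.61-fold higher in VAT with adjuvant alone (log2 2.73 ± 0.18, edgeR adjusted p = 6.42e-09) and 4.60-fold higher after Fat1562 (log2 2.20 ± 0.17, adjusted p = 5.99e-08). Both calls held in each alternative. The Fat1562 effect was −0.17 ± 0.17 in VAT (adjusted p = 0.645) and 0.35 ± 0.17 in Spl/LN (adjusted p = 0.266). The Spl/LN groups did not overlap, as for 21.2% of all genes, and the value was called with no filter on low counts (adjusted p = 0.0432).

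Bhlhe40, the helix-loop-helix repressor, was the lowest of the 7 per kilobase in Spl/LN and was likewise far higher in VAT. It had 122, 257 and 142 normalized counts in Spl/LN adjuvant alone, 129, 147 and 231 in Spl/LN adjuvant/Fat1562, 1235 and 945 in VAT adjuvant alone, and 1731, 2079 and 1273 in VAT adjuvant/Fat1562. The Spl/LN groups overlapped throughout. The 3 immunized VAT libraries lay above both VAT controls, and 41.1% of all genes had no overlap there in either direction. Bhlhe40 was 6.32-fold higher in VAT with adjuvant alone (log2 2.66 ± 0.27, edgeR adjusted p = 1.91e-06) and 9.92-fold higher after Fat1562 (log2 3.31 ± 0.26, adjusted p = 1.01e-07), and both calls held in each alternative. Within VAT the Fat1562 effect was 0.63 ± 0.26 (adjusted p = 0.165), a value that was called with no filter on low counts (adjusted p = 0.000409) and when only the VAT libraries were fitted (adjusted p = 0.0337). In Spl/LN it was −0.02 ± 0.27 (adjusted p = 0.984), with a sign that depended on the library left out. The antisense gene 0610040F04Rik, which overlaps Bhlhe40 by 118 exon bases, had at most 3 counts in any library.

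The partners and relatives of the 7 factors were read from a list of 35 genes, of which 31 were tested. Between VAT and Spl/LN with adjuvant alone, 7 were called higher and 2 lower, and after Fat1562, 6 higher and 5 lower. In either direction these were 29% and 35.5% of the 31, against 16.3% and 15.0% of all tested genes. Genes of AP-1 subunits led the increases. Junb, the usual dimer partner of BATF, averaged 3497 ± 91.1 and 2587 ± 69.8 normalized counts in the Spl/LN groups without and with Fat1562, against 40208 ± 3141 and 17825 ± 1330 (SD) in VAT. With adjuvant alone its log2 tissue difference was 3.52 ± 0.08 (adjusted p = 7.79e-15). Fosl2, another AP-1 subunit, averaged 45.9 ± 15.8 and 94.6 ± 32.8 in Spl/LN against 3739 ± 94.0 and 2181 ± 246 in VAT (log2 6.33 ± 0.23, adjusted p = 3.99e-12, and 4.54 ± 0.21, 1.11e-10). Jun rose as well, by 3.17 ± 0.37 on the log2 scale between the tissues after Fat1562 (adjusted p = 8.40e-06). JUN and JUNB are also known as early response genes that cell isolation can induce, and the tissue and its digestion cannot be told apart in these values.

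Id3, which encodes another inhibitor of E proteins, ran opposite to Id2 between the tissues. It averaged 869 ± 62.0 and 773 ± 99.8 normalized counts in Spl/LN adjuvant alone and Spl/LN adjuvant/Fat1562, against 30.8 ± 10.1 and 20.4 ± 2.12 in VAT. Its tissue difference was −4.80 ± 0.21 on the log2 scale with adjuvant alone (adjusted p = 3.60e-11) and −5.23 ± 0.19 after Fat1562 (adjusted p = 8.38e-12). Irf1 was lower in VAT than in Spl/LN by 0.38 with adjuvant alone (adjusted p = 0.0386). In the mice given Fat1562, Dbp, a bZIP factor of the circadian clock, was lower in VAT than in Spl/LN by 1.72 (adjusted p = 0.0186). The Fat1562 effect on Dbp within VAT was −1.30 (adjusted p = 0.147) and was not called.

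Fat1562 against adjuvant alone in VAT gave 1 gene of the partner list called higher and 6 lower. In either direction these were 22.6% of the 31 tested, against 8.30% of all genes. The median log2 fold change of the list was −0.55, against 0.01 over all genes. Irf8, which is known to bind with BATF as IRF4 does, was the one that rose, by 0.84 ± 0.20 on the log2 scale (adjusted p = 0.0161), from a mean of 476 ± 131 to 852 ± 222 normalized counts. Junb fell by 1.17 (adjusted p = 4.80e-08), opposite in direction to Batf. Nr1d1, a repressor of the circadian clock, fell by 2.17 (adjusted p = 0.000743), and between the tissues with adjuvant alone it was higher in VAT by 1.11 ± 0.34 (adjusted p = 0.0321). In Spl/LN, 2 were called higher, Fosl2 at 1.01 (adjusted p = 0.0291) and Arntl at 0.53 (adjusted p = 0.0351), and 2 lower, Hlf at −2.56 (adjusted p = 0.0488) and Junb at −0.43 (adjusted p = 0.00128). Calls in Spl/LN made up 12.9% of the list, against 3.98% of all genes.

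The effector program with which these factors are linked was read from 27 effector Treg genes, all tested. In VAT with adjuvant alone 16 were called higher and 5 lower than in Spl/LN, and after Fat1562 17 higher and 0 lower, so that most calls had the direction of those of the factors. In either direction these were 77.8% and 63% of the 27, against 16.3% and 15.0% of all genes. Il10, the suppressive cytokine, was higher by 6.45 ± 0.37 on the log2 scale with adjuvant alone (adjusted p = 1.00e-09) and by 4.08 ± 0.31 after Fat1562 (6.02e-08). Areg, the tissue repair ligand, was higher by 5.96 ± 0.21 (2.71e-12) and 4.56 ± 0.19 (4.48e-11). Nt5e at −1.72 (2.77e-06) and Itgae at −1.59 (1.72e-07) were lower in VAT with adjuvant alone.

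Fat1562 moved the same effector list in both directions. In VAT, 11 were called higher and 6 lower, together 63% of the 27, against 8.30% of all genes. The inhibitory receptor gene Lag3 rose by 4.63 ± 0.23 (adjusted p = 1.72e-09) and the decoy receptor gene Il1r2 by 2.29 ± 0.21 (2.79e-06), whereas Il1rl1, the IL-33 receptor gene, fell by 1.73 (1.15e-05) and Areg by 1.14 (0.000382). In Spl/LN, 7 were called higher and 2 lower, led by the chemokine receptor genes Cxcr3 at 2.12 ± 0.23 (4.70e-05) and Cxcr6 at 1.40 ± 0.14 (2.75e-05), with Itgae at −1.41 (3.40e-06) and Ccr6 at −0.89 (0.000615). Calls in Spl/LN made up 33.3% of the list, against 3.98% of all genes.

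Of 13 genes of resting Treg cells, 8 were called lower and 1 higher in VAT than in Spl/LN with adjuvant alone, and 6 lower and 2 higher after Fat1562. In either direction these were 69.2% and 61.5% of the 13, against 16.3% and 15.0% of all genes. Besides Id3, Tcf7 (TCF-1) was lower by −4.67 ± 0.47 on the log2 scale with adjuvant alone (adjusted p = 1.37e-06) and −4.20 ± 0.40 after Fat1562 (8.62e-07), and Il7r was higher, at 0.81 (0.000509) and 0.39 (0.0434). Fat1562 against adjuvant alone in VAT gave 4 called lower and 3 higher, 53.8% of the list against 8.30% of all genes. These were led by Klf2 at −1.47 (0.0114), Foxp1 at −1.32 (5.23e-05), Myb at 2.20 (0.00118) and Satb1 at 1.02 (0.00318). In Spl/LN 3 were called lower, led by Ccr7 at −3.07 (1.28e-05) and Bcl2 at −1.38 (0.00721), and 0 higher. Calls in Spl/LN made up 23.1% of the list, against 3.98% of all genes.

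**Figure D4:**
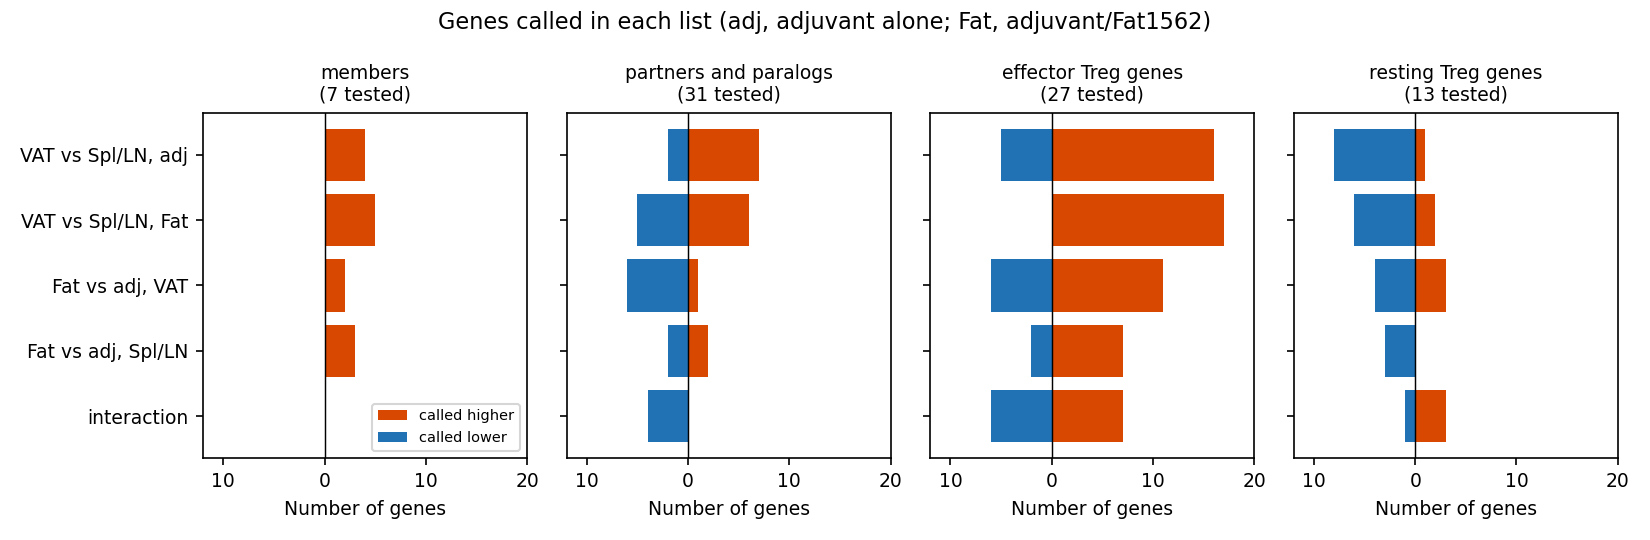
Number of genes (x axis) called higher (right of 0) or lower (left of 0) in the 7 factors, their 31 tested partners and paralogs, 27 effector Treg genes and 13 resting Treg genes, for the 4 comparisons and the interaction. No factor is called lower in any of them. For Fat1562 against adjuvant alone in VAT, the partners have 6 of 7 calls lower, where 52.1% of the calls over all tested genes are higher.

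The members also differed in how closely other genes followed them. Likeness was the root mean square (RMS) difference between mean-centred log2(normalized count + 1) values over the 11 libraries, among 8958 genes with a mean of at least 50 normalized counts. The closest to Batf were Itm2c (0.11), Cd28 (0.13), the costimulatory receptor gene, and Entpd1 (0.13), which encodes the ectonucleotidase CD39, where the median gene lay at 0.44. Nearest to Nfil3 were Gm45716 (0.19) and the myo-inositol transporter gene Slc5a3 (0.23), against a median of 1.01. Gm45716 and the next gene, Mmd (0.27), share 280 exon bases on the same strand, and Slc5a3 shares 159 with Mrps6, so the counts of all 3 are uncertain. The genes nearest to Id2 were Slc15a3 (0.19), Mxd1 (0.22) and Rgs16 (0.25), against 1.26. Without strand, reads of Slc15a3, Rgs16, Pcyt1a and Dhx32 cannot be told from those of genes that overlap their exons on the opposite strand. Bhlhe40 had the largest distances to its nearest genes, Dusp14 (0.40), Pcyt1a (0.47) and Odc1 (0.48), against a median of 1.61. It also varied the most, with an RMS of 1.59 about its own mean, and distances grow with that spread. The members therefore cannot be ranked by these distances alone. The nearest to Prdm1 were Pfdn1 (0.16), Rheb (0.17) and Dhx32 (0.18), to Irf4 Mthfs (0.09), whose counts are uncertain because it shares 262 exon bases with Gm29094 on the same strand, Tbc1d15 (0.12) and Zdhhc20 (0.12), and to Maf Rab1b (0.06), Actr3 (0.06) and Lrrfip1 (0.08). Prdm1, Batf, Irf4 and Maf vary little themselves, with RMS values of 0.35, 0.35, 0.23 and 0.17 about their own means, so a small distance to any of these 4 is in part one between genes that vary little. Among the 7, the smallest distance was that of Prdm1 and Maf (0.29), Id2 and Bhlhe40 lay 0.54 apart, and Irf4 and Bhlhe40 lay farthest apart (1.53).

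In GENCODE vM21 (GRCm38), the 7 are protein-coding genes. Batf (chr12:85686669-85709087, plus strand) and Id2 (chr12:25093799-25097140, minus strand) lie on one chromosome, as do Irf4 (chr13:30749226-30766976, plus) and Nfil3 (chr13:52967209-52981073, minus). Prdm1 is at chr10:44437177-44528501 (minus), Maf at chr8:115682942-115707794 (minus) and Bhlhe40 at chr6:108660629-108666925 (plus). No other gene shares exon bases with Prdm1, Irf4, Batf, Nfil3 or Id2.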

How the data were processed

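The authors deposited raw counts of 52997 genes in 11 libraries as a single table of whole numbers, made per the submitters' processing notes with STAR 2.5.4, featureCounts and mm10 from paired reads of 38 bases. The annotation and strand setting are not given in the sources used here, and the methods also name Cuffquant. Smart-seq2 libraries carry no molecular identifiers, so counts are of amplified fragments, and standard errors do not cover loss before amplification. Depth was 4490242 to 6570057 counts per library. A gene was tested if some group had a mean above 10 once libraries were scaled to a common total. One fit of the 4 groups used edgeR 4.0.16 in R 4.3.3 (TMM, quasi-likelihood, prior count 0.125). P-values were adjusted by Benjamini-Hochberg over 12932 genes. The steps were tested on simulated data. The members and gene lists were chosen with earlier results of these data known. Genes named were the members, the 3 closest to each, and in each list and comparison up to 2 called genes with the largest change each way. Exon lengths, positions and overlaps came from GENCODE vM21. Alternatives were other filters (none, a mean above 50, a coefficient of variation under 0.7), size factors by median of ratios, quantile normalization with limma 3.58.1, DESeq2 1.42.0, only the groups compared, the replicate number as a block, each library left out and, chosen after seeing the data, both libraries with the most Igkc left out. All columns were matched to samples by their labels. No protein sequence was used here.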

Additional observations from a re-analysis of the deposited data

Results flagged for a closer look

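None of the 7 factors had a Fat1562 effect called different between tissues, whereas 4 of 31 partners and paralogs, 13 of 27 effector Treg genes and 4 of 13 resting Treg genes did (edgeR interaction, adjusted over 12932 genes). These were 12.9%, 48.1% and 30.8% of the lists, against 3.72% of all tested genes. Values are given for 9 of the called list genes, chosen by their place among the largest differences of each list. The log2 effect in VAT minus that in Spl/LN was −1.80 for Nr1d1 (adjusted p = 0.0441) and −1.79 for Fosl2 (0.00306) among the partners. Among effector Treg genes it was 3.28 for Lag3 (5.81e-06), 2.22 for Il1r2 (0.000239), −2.37 for Il10 (0.0142) and −1.67 for Cxcr6 (0.000179). Among resting Treg genes it was 3.59 for Ccr7 (0.000239), 2.12 for Myb (0.0171) and −1.79 for Klf2 (0.0341).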

How the results depend on the processing

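Of 35 results (7 genes in 5 comparisons), 19 kept their direction and side of the threshold under all alternatives. The calls of Nfil3, Id2 and Bhlhe40 between tissues, and those of Nfil3 and Batf after Fat1562 in VAT and of Nfil3 in Spl/LN, were kept in 20 of 20. The others rest on few libraries, and small effects near the threshold cannot be settled at this depth and replication. Unless a value is given, the cause of a change was not tested.

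Left out one at a time, libraries moved the count of members called from 3 to 5 between tissues after Fat1562, from 1 to 2 for Fat1562 in Spl/LN and from 0 to 1 in the interaction. The counts over all genes ran from 1250 to 2106 and from 1288 to 2374 between tissues with adjuvant alone and after Fat1562, from 509 to 1397 and from 190 to 500.0 for Fat1562 in VAT and Spl/LN, and from 236 to 581 in the interaction. Signs turned for 7 small log2 values, whose ranges were −0.0926 to 0.0235 (Batf) between tissues with adjuvant alone, −0.110 to 0.00931 (Maf) after Fat1562, −0.0621 to 0.0319 (Maf) and −0.418 to 0.0194 (Id2) for Fat1562 in VAT, −0.0165 to 0.304 (Prdm1) and −0.324 to 0.373 (Bhlhe40) in Spl/LN, and −0.151 to 0.136 (Irf4) in the interaction. Without both Igkc-high libraries, Batf stood at 0.0163, Prdm1 at −0.0166, Bhlhe40 at 0.373 and Irf4 at −0.110 in these comparisons, 1 member was called for Fat1562 in Spl/LN, and 1260 genes were called between tissues with adjuvant alone, 523 for Fat1562 in VAT and 268 in the interaction, with fewer samples. With no filter, 793 genes were called for Fat1562 in Spl/LN and 1 member (Id2) in the interaction, and DESeq2 called 793 and 789 genes in those comparisons. Quantile normalization left 1 member called in Spl/LN and put Maf at 0.00345 in VAT.

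Libraries with one replicate number were not paired by the labels, and their deviations correlated between −0.0395 and 0.0554. With the number as a replicate block, Prdm1 between tissues after Fat1562 lost its call (0.52, edgeR adjusted p = 0.0570), Bhlhe40 in Spl/LN stood at 0.0143, and 1803, 1860, 990, 515 and 437 genes were called in the 5 comparisons.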
